A study of Mus musculus with 24 samples.

Results

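The genes described here are 10 ligands, receptors and feedback inhibitors of fibroblast growth factor (FGF) signalling: Fgf4, Fgf5, Fgf8, Fgf15, Fgfr1, Fgfr2, Fgfr3, Fgfr4, Spry4 and Dusp6. They were chosen by name, with earlier results of these data known. Each of the 10 was found among the 21909 gene symbols of the expression tables. The study mapped nucleolus-associated domains (NADs), the stretches of the genome that lie close to the nucleolus, in mouse embryonic stem cells (ESCs) and in neural progenitor cells (NPCs) derived from them, and measured RNA in each. Of its 24 samples, 3 ESC and 3 NPC RNA-seq samples entered the comparisons of expression, and the NAD list of each cell type was used for position. The 10 ChIP-seq samples were not analysed here.

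ESCs of the E14 line, of 129/Ola origin, were grown in 2i medium. This medium held 1000 U/ml leukemia inhibitory factor (LIF), 3 µM CHIR99021, an inhibitor of the kinase GSK3β, and 1 µM PD0325901, an inhibitor of MEK, the kinase that activates ERK downstream of FGF receptors. The labels word the medium as an alternative and name only 2i. NPCs were made from E14 cells as embryoid bodies in medium with 10% fetal calf serum over 8 days, of which the final 4 were with 2 µM retinoic acid. The descriptions of the NPCs list neither LIF nor the inhibitors, so cell type, medium and any batch between the separately tabulated ESC and NPC libraries cannot be told apart. RNA of each cell type came from 3 separate culture dishes and was enriched for poly(A). For the NAD lists, ESC lines carried an inducible fusion of histone H2B and the bacterial methyltransferase Dam at the Rosa26 locus, either carrying a signal for the nucleolus (H2B-Dam-NoLS) or lacking it (H2B-Dam). Each fusion was measured in 2 samples per cell type, 15 h after Shield1 at 1 µM and doxycycline at 100 ng/ml were given, in NPCs after dissociating and replating the cells.

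FGFs are secreted proteins that bind receptor tyrosine kinases together with heparan sulfate or a co-receptor, and the receptors signal through adaptors to the RAS-RAF-MEK-ERK cascade. Cells limit this signal by transcribing inhibitors of it, among them Sprouty proteins and phosphatases of ERK. In the early mouse embryo and in ESCs, Fgf4 and ERK activity push cells out of naive pluripotency, and FGF signals later pattern the neural tube and maintain its progenitors.

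The deposited values are RPKM, reads per kilobase of gene and per 1000000 reads. Multiplied by the whole span of a gene, introns included, 93.7% to 94% of the low values (under 1000 reads) of a sample fell on whole multiples of 1 step, within 0.01 of a read. With the summed exon length in its place, the share was 5.75% to 7.93%. The reads of most genes could therefore be recovered, and are given beside reads per 1000000 reads in genes (RPM). Of 162 genes in the lists used here, 153 gave whole reads on the annotated span and 6, Spry4 among them, on another length fitted to the values. Fgf12 and Ndst1 gave no whole reads, so their reads are not given, and Oraov1 had no single span. The ESC samples held 34.1 M, 33.7 M and 30.8 M reads in genes (M, 1000000) and the NPC samples 30.2 M, 27.3 M and 32.3 M. Because RPKM divides by introns too, genes with long introns have low RPKM. Levels of FGF ligands and of receptors are compared between genes only on a stated length. Marker levels were summed, and the most abundant marker of a list taken, by RPM, which divides by no length.

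ESC replicate 3 stood apart from the other ESC samples. Across genes, its log2(RPKM + 1) correlated with ESC replicates 1 and 2 at r = 0.9631 and 0.9658, against 0.9985 between replicates 1 and 2 and at least 0.996 among the NPC samples. Its 100 most abundant genes took 23.9% of its reads, against 17% and 17.2% in the other ESC samples. For the FGF genes and the lists, results without it are given where a call or a count of calls changes.

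The labels were checked against marker genes, called in limma at an adjusted p under 0.05 on log2(RPM + 0.1), a scale chosen after the data were seen. On this scale 45.5% of all tested genes were higher in NPCs and 28.0% lower. All 7 pluripotency markers were lower in NPCs, with a summed level of 4610, 4620 and 3800 RPM in ESC replicates 1 to 3 and 16.5, 14.8 and 15.1 RPM in NPC replicates 1 to 3. Of 7 markers of neural progenitors and radial glia, 6 were higher in NPCs, and the summed level was 355, 368 and 442 RPM in ESCs and 923, 905 and 925 RPM in NPCs. The most abundant of them, Vim, was not called (352 ± 49.7 RPM in ESCs, 406 ± 24.6 in NPCs, mean ± SD, n = 3) until ESC replicate 3 was left out (adjusted p = 0.000441 in limma). Its log2 difference, NPC minus ESC, was 0.21 with all samples. With each sample rescaled by its median ratio to the others, it was -0.08 (limma adjusted p = 0.726). Hes5 had 0 reads in every ESC sample. Pax6, for which the study describes its neural precursors as positive, had 0.382, 0.474 and 0.13 RPM in ESCs. In NPCs it had 44, 40.5 and 47.5 RPM, so it was near 0 in each ESC sample and present in each NPC sample.

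Markers of other cell types moved with the NPC samples too. All 5 mesenchyme markers were higher in NPCs, and their summed level was 2.06, 2.64 and 1.33 RPM in ESCs and 1310, 1390 and 1380 RPM in NPCs, led by Col3a1 at 777 ± 28.8 RPM. Of 5 endoderm markers 4 could be tested and were higher, with summed levels of 3.14, 3.56 and 2.18 RPM in ESCs and 651, 674 and 681 RPM in NPCs, led by Gata4 at 429 ± 7.68 RPM. Afp, also of this list, had 0 reads in ESCs and 18, 11 and 6 reads in NPCs. Mesoderm markers summed to 8.52, 8.92 and 7.76 RPM in ESCs and 24.4, 23.8 and 22.6 RPM in NPCs, where Meox1 was the most abundant; 3 of 5 could be tested, of which 2 were higher and 1 lower.

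Of 5 neuron markers, 3 were higher and 2 lower in NPCs. Their summed level was 317, 327 and 429 RPM in ESCs, led by Stmn2, and 218, 180 and 204 RPM in NPCs, led by Dcx, which had 0 reads in ESCs. Neural crest markers summed to 32, 33.4 and 27.2 RPM in ESCs, led by Foxd3, and 5.33, 5.42 and 4.75 RPM in NPCs, led by Tfap2a; 1 of 3 was higher and 2 were lower. Primed epiblast markers, led by Dnmt3b in each cell type, summed to 183, 192 and 125 RPM in ESCs and 32.5, 30.4 and 28.5 RPM in NPCs. Of these 3, Pou3f1 was higher and 2 were lower. The part of these other cell types in the FGF results was not tested. In such bulk samples, fewer cells of a type and less RNA per cell cannot be told apart.

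Expression was compared with limma on log2(RPKM + 1) over the 7757 genes with at least 1 RPKM in at least 3 of the 6 samples, with a gene called at an adjusted p under 0.05. Of the 10 FGF genes, 4 passed this filter. Fgfr3 and Dusp6 were called higher in NPCs, beside 37.0% of all tested genes. Fgf4 was called lower, beside 33.1% of all tested genes, and Fgfr1 was not called. Fgfr2 and Fgf5 missed the filter although each had at least 192 reads in every NPC sample. With no filter, all 10 were tested, of which 7 were called higher and 2 lower, beside 39.5% and 22.9% of 18217 genes.

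After the data had been seen, the comparison was therefore repeated with limma on log2(RPM + 0.1) over the 14282 genes with a mean of at least 10 reads. Here 9 of the 10 could be tested, all but Fgf8. Fgf5, Fgf15, Fgfr2, Fgfr3, Fgfr4, Spry4 and Dusp6, 7 in all, were called higher in NPCs, beside 45.5% of all tested genes. Fgf4 was the 1 gene called lower, beside 28.0%, and Fgfr1 was again not called. With a difference of at least 2-fold asked for as well, 6 were higher, all of the above but Spry4, and 1 was lower, beside 36.1% and 16.9% of all tested genes. A gene near 0 in ESCs could pass either filter only through its NPC values, so these counts describe the genes and support no statement about the list.

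The median log2 difference, NPC minus ESC, was 2.77 over the 9 FGF genes and 0.36 over all tested genes on the RPM scale. On the RPKM scale it was 1.11 over the 4 tested FGF genes and 0.03 over all tested genes. Genes near 0 in either cell type could pass a filter only through their values in the other. This median and those of the other lists below therefore describe the tested genes and support no statement about a list. With each sample rescaled by its median ratio to the others, the all-gene median on the RPM scale moved from 0.36 to 0.07. The differences of Fgfr1, Spry4, Ccnd1, Cttn and Fadd are therefore also given on the rescaled values, as is that of Vim above. On these, 39.9% of all tested genes were called higher and 35.0% lower, or 31.9% and 22.6% with at least a 2-fold difference. Without ESC replicate 3 the shares were 51.5% and 36.6%, or 34.1% and 16.4% with at least a 2-fold difference. Log2 differences near 0 reads depend on the added constant, and log2(RPKM + 1) understates the change of low genes.

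**Figure D1:**
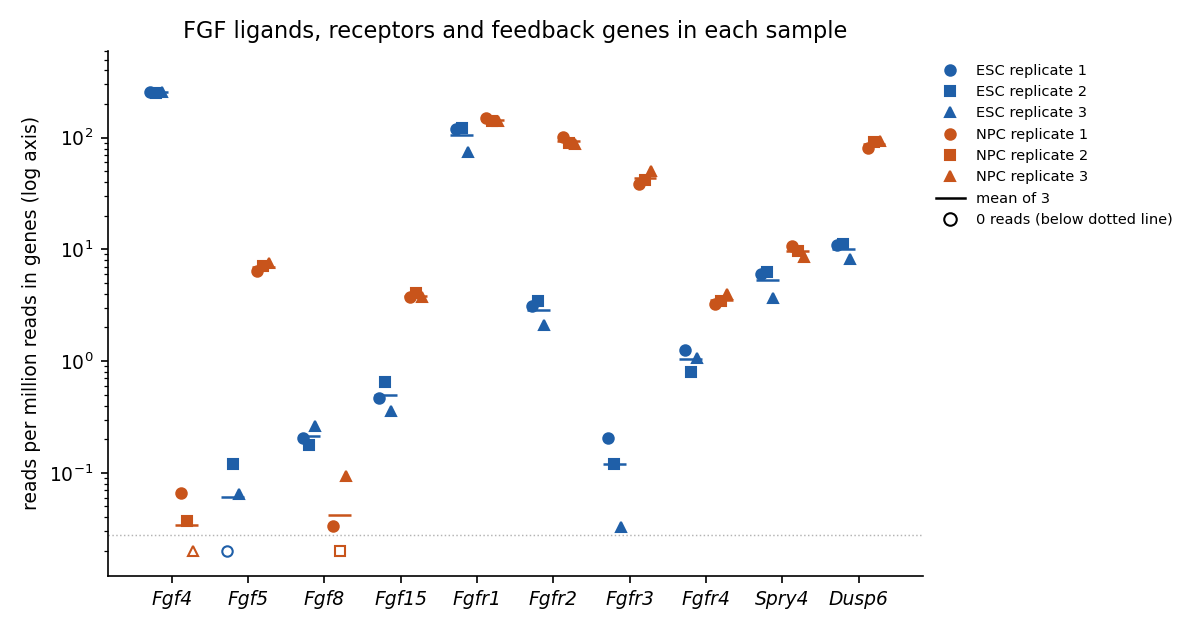
RPM, the reads per 1000000 reads in genes (log axis), of each of the 10 FGF genes in the 3 ESC and 3 NPC samples, where circles, squares and triangles are replicates 1, 2 and 3, bars are means and open markers under the dotted line are samples with 0 reads. Fgf4 was near 254 RPM in ESCs and at 2, 1 and 0 reads in NPCs, whereas Fgfr2, Fgfr3, Dusp6 and Fgf5 lay far higher in NPCs.

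Of the secreted ligands, Fgf4 had the highest level per exon kilobase in ESCs. Fgf4 (ENSMUSG00000050917.5, chr7:144847367-144865243 on the plus strand of GRCm38) encodes the ligand by which ESCs activate ERK in their neighbours and themselves. It had 8696, 8490 and 7844 reads in ESC replicates 1, 2 and 3, or 255, 252 and 255 RPM, and 2, 1 and 0 reads in NPC replicates 1, 2 and 3. The ESC samples were alike, replicate 3 included, and every NPC sample was at or near 0.

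The level of Fgf4 was 254 ± 1.99 RPM in ESCs and 0.0343 ± 0.0332 RPM in NPCs (SD, n = 3). The 0 reads of NPC replicate 3 allow up to 0.0929 RPM, the worth of 3 reads. From the reads of all samples, the level in ESCs was 7590 times that in NPCs, with a 95% interval of 2600 to 36800; here and below such intervals cover counting error only. On the deposited scale Fgf4 had 14.3, 14.1 and 14.3 RPKM in ESCs, and log2(RPKM + 1) fell by 3.92 in NPCs (SE 0.063, limma adjusted p = 1.71e-07). On log2(RPM + 0.1) it fell by 10.92 (SE 0.203, limma adjusted p = 1.50e-07), and it fell by 10.91 without ESC replicate 3 (limma adjusted p = 9.60e-11).

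Fgf5, a ligand known from the primed epiblast and from the hair cycle, ran the opposite way (chr5:98254184-98277030, plus strand). It had 0, 4 and 2 reads in ESCs and 194, 192 and 242 reads in NPCs, or 6.43, 7.04 and 7.49 RPM. All 3 NPC samples lay above all ESC samples, which stayed at 0.119 RPM or less. The NPC level was 115 times the ESC level (95% interval 52.5 to 315), and log2(RPM + 0.1) was 5.53 higher (SE 0.296, limma adjusted p = 4.51e-06). ESC replicate 2 held 4 of the 6 ESC reads, so the ratio would be higher without it. Of the 3 primed epiblast markers, Pou3f1 was higher in NPCs too, by 3.84 on log2(RPM + 0.1) (limma adjusted p = 1.46e-05), and the other two were lower.

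Fgf15, the mouse counterpart of human FGF19 and a ligand of the embryonic brain and the gut, was low in each cell type (chr7:144896531-144900953, plus strand). It had 16, 22 and 11 reads in ESCs and 114, 111 and 120 reads in NPCs, or 0.47, 0.652 and 0.357 RPM against 3.78, 4.07 and 3.72 RPM. The groups did not overlap, and the NPC samples were close to one another. The ratio was 7.74 (95% interval 5.72 to 10.7), or 6.87 without ESC replicate 3, and log2(RPM + 0.1) was 2.77 higher (SE 0.212, limma adjusted p = 2.67e-05). Exons of 2 antisense genes overlap those of Fgf15, and whether the counting used strand is not given in the sources used here.

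Fgf8, a ligand of the midbrain-hindbrain boundary and of gastrulation, was at the limit of detection. It had 7, 6 and 8 reads in ESCs and 1, 0 and 3 reads in NPCs (chr19:45736798-45742915, minus strand). Each ESC sample was above each NPC sample, with all 6 under 10 reads. The ESC level was 4.78 times the NPC level, with a wide 95% interval of 1.61 to 19.1, and 4.56 times without ESC replicate 3. NPC replicate 3 held 3 of the 4 NPC reads, so the ratio would be higher without it. Fgf8 had too few reads for the test on RPM. With no filter on RPKM it was called lower, although log2(RPKM + 1) fell by 0.04 only (limma adjusted p = 0.0055).

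Fgf4 and Fgf15 are neighbours on chromosome 7, 31.3 kb apart on the same strand, and differed in opposite directions. Fgf3, another ligand, ends just before the annotated start of Fgf4 and had 246, 253 and 271 reads in ESCs and 11, 13 and 10 in NPCs, so it was high where Fgf4 was high. Its log2(RPM + 0.1) fell by 4.05 in NPCs (limma adjusted p = 2.14e-06). On the other side of Fgf15, Ccnd1, which encodes cyclin D1, had 6436, 6926 and 3384 reads in ESCs and 2338, 2175 and 2744 in NPCs, and fell by 1.01 on the log2 scale of RPM (limma adjusted p = 0.00816). It fell by 1.29 without the low ESC replicate 3 and fell by 1.30 on the rescaled values. Ano1, a chloride channel gene upstream of Fgf3, went the other way, with 9, 11 and 3 reads in ESCs and 1488, 1286 and 1558 in NPCs.

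Of the 9 genes listed around this locus, Fgf4 and Fgf15 among them, 8 could be tested on RPM, of which 4 were higher, 3 lower and 1 not called in NPCs, beside 45.5% higher and 28.0% lower among all tested genes. The median log2 difference was 0.41 (0.11 without ESC replicate 3), against 0.36 (0.26) over all tested genes. Cttn and Fadd were the other genes called higher, by 0.46 and 0.84 on the log2 scale of RPM (limma adjusted p = 0.026 and 0.005). On the rescaled values neither was called, at 0.17 and 0.55 (limma adjusted p = 0.203 and 0.0669). This left 2 genes higher, 3 lower and 3 not called, beside 39.9% higher and 35.0% lower among all tested genes. Ppfia1 was not called, and its ESC replicate 3 (1121 reads) was far below replicates 1 and 2 (3302 and 3289 reads). Oraov1 had no single span in the annotation and could be tested only on RPKM, where it was 0.32 higher on the log2 scale (limma adjusted p = 0.000818).

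Among 14 other secreted FGFs, 9 could be tested on RPM, of which 6 were higher and 3 lower in NPCs, beside 45.5% and 28.0% of all tested genes. The median log2 difference was 2.24 (1.73 without ESC replicate 3), against 0.36 over all tested genes. Fgf17 had the largest fall of these, with 554, 642 and 816 reads in ESCs and 4, 0 and 5 reads in NPCs. Its level fell by 6.81 on the log2 scale of RPM (limma adjusted p = 6.48e-06). Fgf9 and Fgf10 were named after their values were seen. Fgf9 had 0, 1 and 0 reads in ESCs and 430, 429 and 523 in NPCs, a ratio of 1520 (95% interval 272 to 60000), and Fgf10 had 23.8 ± 4.33 RPM in ESCs and 12.8 ± 1.65 RPM in NPCs.

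To set ligands side by side, RPM was divided by the summed exon length in kilobases. On this scale the 18 secreted ligands summed to 101 ± 2.5 in ESCs and 15.8 ± 0.518 in NPCs, 6.40 times more in ESCs. Fgf4 made up 80.3%, 78.8% and 76.6% of this level in ESC replicates 1, 2 and 3, followed by Fgf17 at 12% ± 2.78, Fgf10 at 5.13% ± 1.04 and Fgf3 at 3.33% ± 0.273. None of these neighbours in the order overlapped in level. In NPCs the level was spread over more ligands: Fgf9 made up 20.9% ± 1.02, Fgf5 17.7% ± 0.912 and Fgf10 17.6% ± 2.55, and the levels of Fgf10 overlapped those of Fgf5 and of Fgf9. Fgf18 followed at 14.6% ± 1.48, with levels that also overlapped those of Fgf10, and Fgf21 at 11.1% ± 1.6; both were named after their values were seen. Fgf15 had rank 6 at 7.98% ± 0.581 and Fgf4 made up 0.0693% ± 0.0671.

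The shares in NPCs depended on the length used. Per kilobase of the longest principal transcript, a scale chosen after seeing the data, Fgf9 made up 40.5% ± 1.53 of the ligand level in NPCs, and its level overlapped that of no other ligand. Fgf10 followed at 13.1% ± 2.03, Fgf5 at 11.7% ± 0.505 and Fgf18 at 10.6% ± 0.973, and the levels of Fgf5 overlapped those of Fgf10 and of Fgf18. Fgf15 had rank 5 at 8.95% ± 0.601 and overlapped Fgf21 at 7.34% ± 1.08. In ESCs the share of Fgf4 was 78.8% ± 1.67 on this scale, close to that per exon kilobase. The summed level was 106 ± 2.37 in ESCs and 23.8 ± 0.832 in NPCs, 4.46 times more in ESCs.

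The intracellular FGF homologous factors resemble FGFs but bind sodium channels and do not act through FGF receptors. All 4 were called higher in NPCs on RPM, beside 45.5% of all tested genes. With no filter on RPKM, 2 were called higher and 2, Fgf12 and Fgf14, were not (limma adjusted p = 0.19 and 0.102), beside 39.5% higher among all tested genes. Fgf12 and Fgf14 passed the filter on reads only through their NPC values. The median log2 difference of the 4 on RPM was 3.64, or 3.93 over the 3 with whole reads and with Fgf14 at its bound. Fgf11 was at 4.52 ± 0.511 RPM in ESCs and 70.1 ± 8.7 RPM in NPCs (limma adjusted p = 1.01e-06). Fgf14 had 0 reads in every ESC sample and was at least 46.9-fold higher in NPCs, against a floor of 3 reads over the group. Fgf12 was listed at 0 in every ESC sample and had 0.994 ± 0.474 RPM in NPCs, computed from its annotated span. Fgf12 and Fgf14 were named after their values were seen.

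Among the receptors, Fgfr1 was high in ESCs and NPCs alike and the other 3 were higher in NPCs. Fgfr1 (ENSMUSG00000031565.18, chr8:25513654-25575718, plus strand) encodes the receptor used most widely in early embryos. It had 4069, 4160 and 2310 reads in ESCs and 4490, 3824 and 4565 in NPCs, or 119, 123 and 75 RPM against 149, 140 and 141 RPM. The groups did not overlap, but ESC replicates 1 and 2 lay close to the NPC samples and ESC replicate 3 far below them.

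The mean level of Fgfr1 was 1.35 times higher in NPCs, or 1.18 times without ESC replicate 3. It was not called on the deposited scale (0.30 higher on log2(RPKM + 1), SE 0.125, limma adjusted p = 0.0673) nor on RPM (0.47 higher, SE 0.206, limma adjusted p = 0.0755). Without ESC replicate 3 it was called on each scale, with 0.16 on log2(RPKM + 1) (limma adjusted p = 0.00427) and 0.24 on log2(RPM + 0.1) (limma adjusted p = 0.000998). Leaving out ESC replicate 2 gave 0.38 and an adjusted p of 0.0494 on RPKM, and the adjusted p ranged from 0.00427 to 0.205 over the alternatives on that scale. After rescaling by median ratios the difference on RPM was 0.18 (limma adjusted p = 0.303), beside an all-gene median of 0.07. An antisense gene overlaps exons of Fgfr1.

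Fgfr2 encodes a receptor of which alternative exons give an epithelial and a mesenchymal form. It had 106, 116 and 65 reads in ESCs and 3031, 2461 and 2856 in NPCs, or 3.11, 3.44 and 2.11 RPM against 101, 90.3 and 88.4 RPM. Every NPC sample was far above every ESC sample. The ratio was 32 (95% interval 28.4 to 36.1), or 28.4 without ESC replicate 3, and log2(RPM + 0.1) was 4.99 higher (SE 0.197, limma adjusted p = 1.14e-06).

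On the deposited scale Fgfr2 looked nearly silent, with 0.034, 0.0305 and 0.0299 RPKM in NPCs. Its annotated span (ENSMUSG00000030849.18, chr7:130162451-133123350, minus strand) is 2.96 Mb, because 1 of its 27 transcripts reaches far past the RefSeq gene of 104 kb. The RPKM were thus divided by a length 28.4 times that of the RefSeq gene. The span holds 28 other genes, and the far transcript shares exon sequence with Ctbp2. Those other genes held 46167, 45660 and 45453 reads in ESCs, where Fgfr2 itself had at most 116.

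Fgfr3, known as a brake on bone growth and a receptor of the neural tube and of glial progenitors, was close to absent from ESCs. Fgfr3 (ENSMUSG00000054252.18, chr5:33721674-33737068, plus strand) had 7, 4 and 1 reads in ESCs and 1155, 1147 and 1625 in NPCs, or 38.3, 42.1 and 50.3 RPM in the latter. ESCs were near 0 in each sample, and NPC replicate 3 was the highest. The NPC level was 360 times the ESC level (95% interval 206 to 696), or 269 times without ESC replicate 3, which had the fewest reads. ESC replicate 1 held 7 of the 12 ESC reads, so the ratio would be higher without it.

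On the deposited scale Fgfr3 rose from 0.0134, 0.0077 and 0.00211 RPKM to 2.49, 2.73 and 3.27 RPKM. Its log2(RPKM + 1) was 1.92 higher (SE 0.077, limma adjusted p = 1.63e-06) and its log2(RPM + 0.1) was 7.71 higher (SE 0.313, limma adjusted p = 1.29e-06). A gene on the opposite strand, of the class annotated as to be experimentally checked, overlaps exons of Fgfr3.

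Fgfr4, the receptor through which FGF15 acts on liver, was the lowest of the 4 in NPCs per exon kilobase. It had 43, 27 and 33 reads in ESCs and 98, 94 and 128 in NPCs, or 1.26, 0.8 and 1.07 RPM against 3.25, 3.45 and 3.96 RPM (chr13:55152640-55168759, plus strand). The groups did not overlap. The ratio was 3.41 (95% interval 2.73 to 4.3), and log2(RPM + 0.1) was 1.69 higher (SE 0.199, limma adjusted p = 0.000245).

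The order of the 4 receptors in NPCs depended on the length by which reads were divided. As deposited, per kilobase of gene span, Fgfr3 made up 52.3% ± 3.79 of their summed RPKM, Fgfr1 43% ± 3.86, Fgfr4 4.08% ± 0.144 and Fgfr2 0.586% ± 0.0749. Divided by exon length, Fgfr1 came first with 47.4% ± 1.21, then Fgfr2 with 29.4% ± 1.86, Fgfr3 with 19.9% ± 2.72 and Fgfr4 with 3.28% ± 0.327. On this scale and on RPKM, no neighbours in the NPC order overlapped in level.

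Per kilobase of the longest principal transcript, Fgfr1 (42.1% ± 0.491) and Fgfr2 (41.2% ± 2.01) overlapped in NPCs, above Fgfr3 (15.1% ± 2.29) and Fgfr4 (1.58% ± 0.18). The rank of Fgfr2 went from last to second with the exon scales, which were chosen after seeing the data. Fgfr4 was below Fgfr1 and Fgfr3 on all 3 scales.

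In ESCs, Fgfr1 made up nearly all of the receptor level on each scale: 95.7% ± 1.31 of RPKM, 94.6% ± 0.952 per exon kilobase and 94.5% ± 0.52 per kilobase of the principal transcript. Per exon kilobase, Fgfr4 (2.75% ± 1) and Fgfr2 (2.48% ± 0.104) followed and overlapped in level, and Fgfr3 made up 0.136% ± 0.0847. The summed level per exon kilobase was 12.8, 13.1 and 8.11 in ESC replicates 1, 2 and 3 and 31.1, 29.8 and 31 in NPCs. Every NPC sample was above every ESC sample, and the means differed 2.71-fold, or 3.03-fold in RPKM. They differed 2.37-fold and 2.65-fold without ESC replicate 3.

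**Figure D2:**
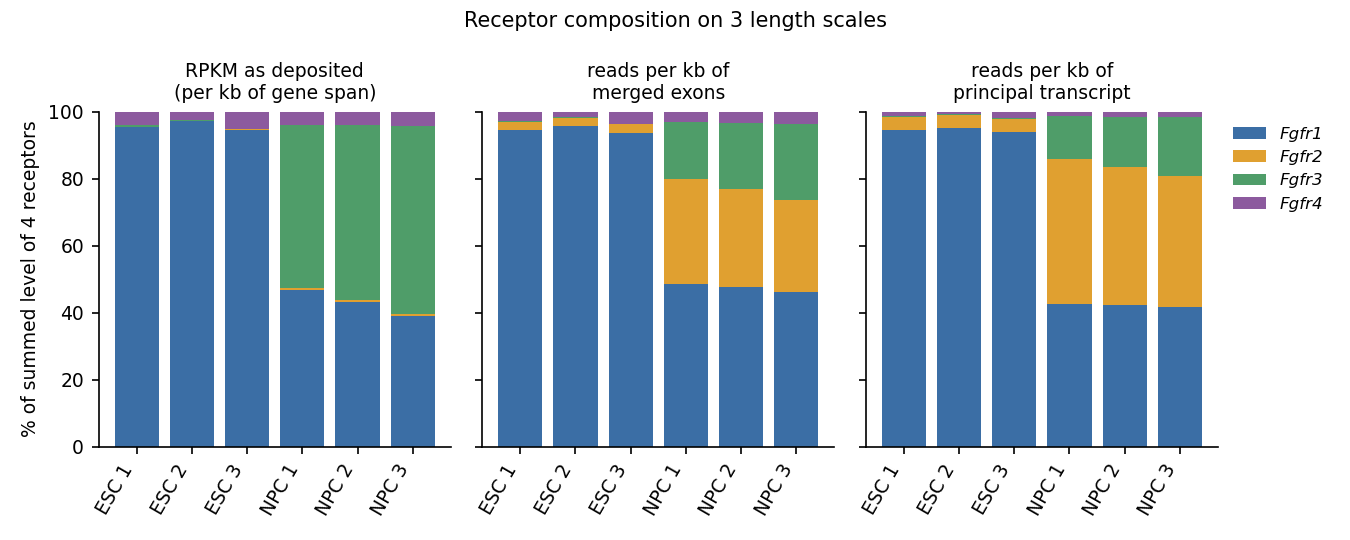
Percent of the summed level of Fgfr1, Fgfr2, Fgfr3 and Fgfr4 (stacked bars, vertical axis) in each of the 6 samples, on the deposited RPKM, per exon kilobase and per kilobase of the principal transcript. Fgfr1 fills at least 93.7% of every ESC bar, and the share of Fgfr2 in NPCs goes from 0.586% on RPKM to 29.4% per exon kilobase.

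Partners of the receptors at the cell surface went in both directions. Of 18 co-receptors and binding proteins, 16 could be tested on RPM, of which 12 were higher and 4 lower in NPCs, beside 45.5% and 28.0% of all tested genes. Their median log2 difference was 3.50 (3.27 without ESC replicate 3), against 0.36 over all tested genes. Fgfbp3, a carrier of secreted FGFs, rose from 0.487 ± 0.288 to 17.1 ± 3.59 RPM. Flrt3, a membrane protein that binds FGF receptors, rose from 9.41 ± 2.33 to 114 ± 4.56 RPM, and the glypican Gpc2 from 2.37 ± 1.01 to 32.6 ± 3.46 RPM. Going the other way, the carrier Fgfbp1 fell from 6.96 ± 2.05 to 0.351 ± 0.114 RPM and the syndecan Sdc4 from 159 ± 24.6 to 40.5 ± 3.78 RPM.

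Of 11 enzymes that build or trim heparan sulfate, 9 were higher and 2 not called in NPCs on RPM, beside 45.5% higher among all tested genes, with a median log2 difference of 1.31. Without ESC replicate 3, 10 were higher and 1 lower, beside 51.5% and 36.6%. On the rescaled values 7 were higher and 4 not called, beside 39.9% higher. The sulfotransferase gene Ndst1, with RPM computed from its annotated span, had 135, 141 and 30 RPM in ESCs and 599, 570 and 568 RPM in NPCs, so that ESC replicate 3 set most of the spread of its ESC values. It was 2.80 higher on log2(RPM + 0.1) with that sample and 2.07 higher without it. Ndst2, of the same family, rose from 8.02 ± 2.75 to 47 ± 1.53 RPM.

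The adaptors and the kinases of the cascade went in both directions. Of 20 genes, 9 were higher, 4 lower and 7 not called on RPM, beside 45.5% higher and 28.0% lower among all tested genes. Their median log2 difference was 0.37, against 0.36 over all tested genes. Without ESC replicate 3 the median was 0.04, against 0.26 over all tested genes, with 9 higher and 8 lower beside 51.5% and 36.6%. On the rescaled values 8 were higher and 7 lower beside 39.9% and 35.0%, with a median of 0.07, equal to that of all tested genes. A difference of at least 2-fold on RPM was found for 6 of the genes called higher and none called lower, beside 36.1% and 16.9% of all tested genes. Without ESC replicate 3 there were 3 such genes, all higher, beside 34.1% higher and 16.4% lower among all tested genes. On the rescaled values 3 were higher and 2 lower, beside 31.9% and 22.6%. Plcg1, a phospholipase bound by activated FGF receptors, was the only gene of this list called with at least a 2-fold difference on the RPKM scale, with 83.3 ± 14 RPM in ESCs and 274 ± 1.99 RPM in NPCs. Its log2(RPM + 0.1) was 1.73 higher (limma adjusted p = 5.25e-05). On RPM the largest difference of the list was that of Sos2, which encodes an exchange factor that activates RAS and was named after its values were seen. It was 3.56 higher on log2(RPM + 0.1) (limma adjusted p = 0.000145), or 3.10 without ESC replicate 3.

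Of the feedback genes, Dusp6 had the larger difference. Dusp6 (ENSMUSG00000019960.8, chr10:99263231-99267489, plus strand) encodes a cytoplasmic phosphatase that removes phosphate from ERK and is itself transcribed when ERK is active. It had 371, 379 and 251 reads in ESCs and 2456, 2476 and 3004 in NPCs, or 10.9, 11.2 and 8.15 RPM against 81.5, 90.8 and 93 RPM. NPC samples lay far above ESC samples, among which replicate 3 was lowest.

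The ratio for Dusp6 was 8.71 (95% interval 8.16 to 9.31), or 7.99 without ESC replicate 3. In RPKM it had 2.56, 2.64 and 1.92 in ESCs and 19.1, 21.3 and 21.8 in NPCs. Its log2(RPKM + 1) was 2.70 higher (SE 0.117, limma adjusted p = 2.33e-06), and its log2(RPM + 0.1) was 3.13 higher (SE 0.157, limma adjusted p = 3.33e-06). The MEK inhibitor was listed for ESCs alone, and its part in this difference cannot be told apart from that of cell type.

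Spry4, a Sprouty protein that inhibits signalling from receptor tyrosine kinases to RAS, had the smallest difference among the FGF genes called on RPM with all samples (chr18:38586247-38601415, minus strand). Its values gave whole reads on a fitted length of 15000 bases, not on its annotated span of 15169 bases, which its test on RPM used. It had 205, 212 and 114 reads in ESCs and 325, 265 and 278 in NPCs, or 6.02, 6.28 and 3.7 RPM against 10.8, 9.72 and 8.61 RPM. The groups did not overlap, with ESC replicate 3 again the lowest. The ratio was 1.8 (95% interval 1.61 to 2), or 1.58 without ESC replicate 3, and log2(RPM + 0.1) was 0.88 higher (SE 0.230, limma adjusted p = 0.0115).

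This call of Spry4 was lost without NPC replicate 1, its highest sample (0.80, limma adjusted p = 0.0516). It was kept without ESC replicate 3 (0.64, limma adjusted p = 0.000811) and after rescaling by median ratios (0.59, limma adjusted p = 0.0209). Over all alternatives on RPM its adjusted p ranged from 0.000811 to 0.0516.

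Of 13 other feedback inhibitors of RAS and ERK, 9 were higher, 1 lower and 3 not called in NPCs on RPM, beside 45.5% higher and 28.0% lower among all tested genes. The median log2 difference was 1.69, against 0.36 over all tested genes. Without ESC replicate 3 there were 10 higher and 3 lower beside 51.5% and 36.6%, with a median of 1.45. Spry1, a relative of Spry4, rose from 7.07 ± 0.548 to 92.1 ± 3.13 RPM (limma adjusted p = 4.30e-07). Dusp4, a nuclear phosphatase of ERK, rose from 0.947 ± 0.524 to 33.8 ± 4.02 RPM. Dusp9, another phosphatase of ERK, rose from 7.94 ± 1.27 to 36.7 ± 4.56 RPM, and Spred3 and Dusp5 rose as well. The gene that was lower with all samples was Spry2, named after its value was seen, with 43.7 ± 1.45 RPM in ESCs and 26.5 ± 0.189 RPM in NPCs, so that Sprouty genes went in both directions.

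Genes that ERK activates also went in both directions. Of 14 transcription factors and early genes, 11 were higher and 3 lower in NPCs on RPM, beside 45.5% and 28.0% of all tested genes, with a median log2 difference of 2.08 (1.94 without ESC replicate 3). On the rescaled values 10 were higher, 3 lower and 1 not called, beside 39.9% and 35.0%. Fos, an early gene, rose from 4.38 ± 1.32 to 70.8 ± 14.7 RPM, Fosb from 0.908 ± 0.422 to 50.4 ± 16.2 RPM and Phlda1 from 0.981 ± 0.123 to 27 ± 1.42 RPM. Of the 3 ETS factors of the list, which are known as FGF targets, Etv5 and Etv4 were lower in NPCs and Etv1 was higher. Etv5 had 378, 393 and 248 RPM in ESCs and 30.2, 27.6 and 28 RPM in NPCs, and fell by 3.54 on the log2 scale of RPM (limma adjusted p = 5.06e-06), and Etv4 fell by 1.47 (limma adjusted p = 0.000165). Etv1, named after its values were seen, had 13.5, 11.6 and 7.57 RPM in ESCs and 34.9, 31.9 and 34.2 RPM in NPCs, and was 1.66 higher (limma adjusted p = 0.000451).

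Receptor tyrosine kinases of other growth factors went in both directions. Of 12, 10 were higher and 2 lower in NPCs on RPM, beside 45.5% and 28.0% of all tested genes, with a median log2 difference of 4.35 (3.92 without ESC replicate 3). Pdgfra, a receptor of platelet-derived growth factor (PDGF) common in mesenchyme, had 1.12, 0.978 and 0.552 RPM in ESCs and 233, 153 and 147 RPM in NPCs. Pdgfrb, of the same family, rose from 2.88 ± 0.407 to 124 ± 7.81 RPM, Kdr, a receptor of vascular endothelial growth factor (VEGF), from 3.74 ± 1.41 to 134 ± 7.92 RPM, and Erbb2 from 13.3 ± 2.17 to 94.2 ± 6.34 RPM. Kit, the receptor of stem cell factor, fell from 422 ± 122 to 56.4 ± 7.16 RPM. The rise of the mesenchyme and endoderm markers given above went along with these differences and with those of Fgfr2, Fgfr3 and Fgf5, and its part in them was not tested.

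**Figure D3:**
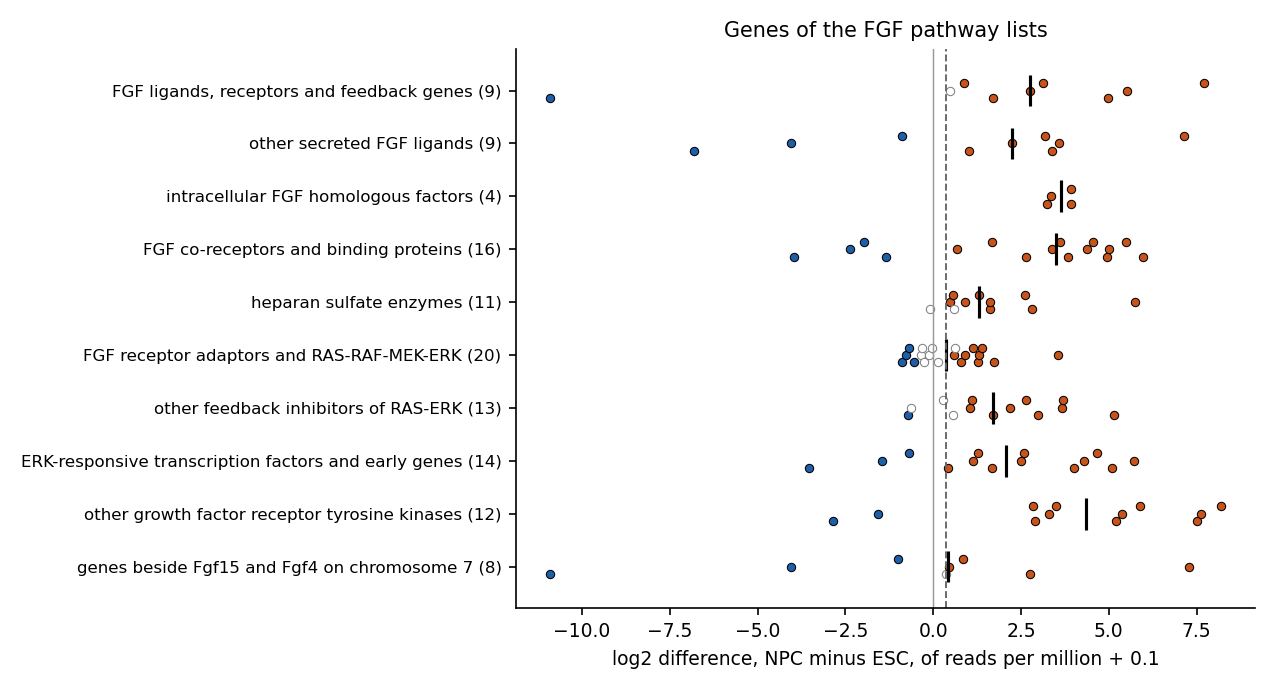
Log2 difference of RPM, NPC minus ESC (horizontal axis), of every tested gene in the 10 lists; filled points were called (orange higher, blue lower in NPCs), open points were not, and a black tick marks the list median. The dashed line is the median of all tested genes, 0.36; the adaptor list has its median at 0.37 and the co-receptor list at 3.50.

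The genes whose pattern over the 6 samples came closest to Dusp6 and to Fgf4 were sought among 21755 other symbols, by Euclidean distance of log2(RPKM + 1). Nearest to Dusp6 were Bhlhe40 (distance 0.421), Mex3b (0.456) and Rbmx (0.504). Nearest to Fgf4 were Triml1 (0.185), Nr0b1 (0.212) and Tuba3a (0.221). These had means of 14.3, 14.7 and 14.5 RPKM in ESCs beside 14.2 RPKM of Fgf4. Such distances compare level as well as pattern, and the levels are per kilobase of gene span. The annotated span of Fgf4 is 4.63 times its RefSeq gene, and nearness on another length was not tested.

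For position, the gene spans were set against the NADs, of which the lists held 1769 in ESCs and 1447 in NPCs. The lists rest on domains common to the replicates and carry 1 score per NAD with no replicate values, so no error can be given. In ESCs, 2 of the 10 FGF genes (20%) overlapped a NAD by at least 1 base, against 27.2% of 21259 genes with a position. In NPCs it was also 2 of 10 (20%), against 21.7%. The genes were Fgfr4 and Fgfr2 in ESCs and Fgfr1 and Fgfr2 in NPCs.

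Fgfr4 lay wholly inside an ESC NAD of 300 kb (chr13:55000302-55300273, score 0.038, rank 449 of 1769), and 30.3 kb from the nearest NPC NAD. Fgfr1 lay wholly inside an NPC NAD of 1 Mb (chr8:25399394-26399956, score 0.106, rank 44 of 1447), and 425 kb from the nearest ESC NAD. NPC NADs covered 77.6% of chromosome 8, against 19.5% for ESC NADs. Over all chromosomes together the shares were 27.6% in NPCs and 30.1% in ESCs. No other chromosome was covered by more than 32.4% in NPCs. Lying in an NPC NAD was thus shared by most of chromosome 8 and was not particular to Fgfr1. Fgfr1 had 149, 140 and 141 RPM in NPCs, where it lay in a NAD, and 119, 123 and 75 RPM in ESCs, where it did not. Fgfr4 had 1.26, 0.8 and 1.07 RPM in ESCs, where it lay in a NAD, and 3.25, 3.45 and 3.96 RPM in NPCs, where it did not. With respect to NADs these differences thus ran opposite ways, and that of Fgfr1 was not called.

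Fgfr2 met NADs only through its far annotated span, where it crossed 2 in each cell type. The RefSeq gene was 133 kb from the nearest ESC NAD and 134 kb from the nearest NPC NAD. With RefSeq spans, 1 gene remained in each list, Fgfr4 in ESCs and Fgfr1 in NPCs. Fgf4, with the largest fall, was 2050 kb from the nearest ESC NAD and 1550 kb from the nearest NPC NAD, and Dusp6 was 533 kb and 32.7 kb away.

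Promoter sequences of RefSeq (GRCm38.p6) were matched by symbol for 6 of the 10 genes: Fgf4, Fgf5, Fgfr2, Fgfr3, Fgfr4 and Dusp6. The 250 bases before the start of Fgf4 and of Dusp6 are shown, as the genes with the largest called fall and rise on the RPKM scale. They are given 5′ to 3′ on the plus strand, at chr7:144861136-144861385 for Fgf4 and chr10:99262981-99263230 for Dusp6.
Fgf4: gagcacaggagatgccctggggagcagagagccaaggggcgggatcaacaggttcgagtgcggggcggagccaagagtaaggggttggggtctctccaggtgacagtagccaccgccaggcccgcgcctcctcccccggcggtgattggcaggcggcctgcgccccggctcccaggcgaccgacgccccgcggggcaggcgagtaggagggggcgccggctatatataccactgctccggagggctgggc
Dusp6: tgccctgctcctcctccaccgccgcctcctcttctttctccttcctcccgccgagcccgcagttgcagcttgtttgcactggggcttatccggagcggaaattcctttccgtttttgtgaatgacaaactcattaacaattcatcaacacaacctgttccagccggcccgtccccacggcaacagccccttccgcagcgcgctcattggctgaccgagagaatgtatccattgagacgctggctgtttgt
The Fgf4 window has 71.2% G and C and the Dusp6 window 56.4%. The start of the RefSeq gene lies inside the longer annotated span of Fgf4, of which 1 of 2 transcripts begins further upstream. Both strands of the promoters were searched for CCGGAAG, bound by ETS factors such as Etv4 and Etv5. They were also searched for TGANTCA, bound by AP-1 factors such as Fos, and for TATAAA, a form of the TATA box core. These letters were in 6.91%, 6.75% and 12.4% of 32851 promoters of the same length, and in no window of the 6 matched genes, which says only that they are not in these bases. Only these exact letters were searched, so variants of a site, such as the tatatata in the Fgf4 window, were not counted.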

How the data were processed

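RNA-seq was measured in 3 ESC and 3 NPC samples, and the authors deposited RPKM per gene. For Nucleolar-DamID, the authors deposited NADs with a score each, and kept as NADs only peaks common to both replicates. How the scores of the replicates were joined is not given in the sources used here. The submitters' notes name Bowtie2 2.3.4.3, Subread 1.4.6-p4 and deepTools 3.2.1 with mm10, whereas the study's methods name STAR for RNA-seq, and the sources differ on the library kit.

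The RPKM turned out to be scaled by the whole gene span of GENCODE M21, which the design had not assumed. RPM were computed as RPKM times span for 21454 symbols, and tests on RPM used that span. Reads printed for single genes are whole on it, or for Spry4 on a fitted length. The scales of RPM and of exon length were added after seeing the data. The 153 symbols on more than 1 line were left out. Tests used limma 3.58.1 (R 4.3.3; lmFit, then eBayes with a trend) and Benjamini-Hochberg adjustment, with no block for replicate numbers. Ratios have exact 95% intervals from the summed reads. Python 3.11.15 was used with pandas 2.3.3, numpy 2.4.6, matplotlib 3.10.9 and scipy 1.17.1.

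The members and lists were chosen with earlier results of these data known. Named genes were the members, their neighbours around Fgf4 and Fgf15, markers, the 3 nearest in pattern to the most raised and the most lowered member, and, per other list, those called with at least a 2-fold difference on log2(RPKM + 1), or, if more than 5, the top 3 in each direction. Genes marked as named after their values were seen fall outside this rule. So does Etv4, whose difference on log2(RPKM + 1) was -0.86.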

Additional observations from a re-analysis of the deposited data

How the results depend on the processing

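The count of genes called was 5443 of 7757 on RPKM (70.2%). Without a filter it was 11366 of 18217 (62.4%), and on RPM 10505 of 14282 (73.6%). Of the FGF genes tested, 3 of 4 were called on RPKM, 9 of 10 without a filter and 8 of 9 on RPM; the fits without a filter and on RPM tested more genes. Replicate numbers did not pair the samples (correlations of deviations 0.114, -0.085 and 0.031), and a replicate block gave 5161 genes on RPKM and 10078 on RPM, with 3 and 8 FGF genes called as before; it ended no call of an FGF gene. With each sample left out in turn, 4568 to 6813 genes were called on RPKM and 9174 to 12583 on RPM.

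The receptor shares in NPCs moved with the length used. Per exon kilobase they were 47.4% for Fgfr1, 29.4% for Fgfr2, 19.9% for Fgfr3 and 3.28% for Fgfr4. Per kilobase of the principal transcript they were 41.2% for Fgfr2, 15.1% for Fgfr3 and 1.58% for Fgfr4. FGF genes in NADs were 1 in ESCs and 1 in NPCs by the gene start only (10% of the 10, against 23.7% and 19% of all genes), and 1 and 1 by the RefSeq span, for which no share over all genes was computed. With NADs at or above the median score they were 2 in ESCs and 2 in NPCs (20% each), against 16.5% and 12.4% of all genes.

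No value for an FGF gene changed sign. Beside the receptor shares in NPCs given above, 162 values of single genes were unchanged under the alternatives. These were log2 differences that kept their direction and side of the threshold, and shares that moved by less than the replicate spread. Of the rest, 3 newly passed the threshold (Fgfr1) and 1 no longer did (Spry4). Another 9, receptor shares in ESCs and ligand shares in NPCs, moved by more than the replicate spread. Log2 differences on RPKM ranged from -7.13 to -3.82 for Fgf4, 0.12 to 0.45 for Fgfr1, 1.81 to 4.76 for Fgfr3 and 2.59 to 3.09 for Dusp6. On RPM they ranged from 2.91 to 5.78 for Fgf5, 1.71 to 2.95 for Fgf15 and 4.61 to 5.13 for Fgfr2. For Fgfr4 the RPM range was 1.16 to 1.83 and for Spry4 0.59 to 1.02. It was -11.09 to -7.95 for Fgf4 and 5.31 to 7.99 for Fgfr3. For Fgfr1 it was 0.18 to 0.60 and for Dusp6 2.84 to 3.21. Depth limits Fgf8 in each cell type, Fgf4 in NPCs and Fgf5 and Fgfr3 in ESCs, where single samples held 0 to 8 reads. The identity between FGF proteins was not run.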
